A study of Mus musculus with 12 samples.

Results

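The 40 genes described here are regulators and effectors of the cell division cycle, from cyclin D1 (Ccnd1) and its kinases through the DNA replication machinery to the mitotic kinases. They were listed by gene symbol, with earlier results of these data known. Of the 40 genes, 38 had a probe set annotated to that 1 symbol, out of 19938 genes measured. Ccnb1 and Cdkn1a were listed on probe sets with several symbols and were not analysed here. RNA came from livers of male mice on the C57BL/6J background, 1 mouse per array, and was measured on Affymetrix gene arrays. By genotype, 6 mice were wild type (WT) and 6 carried the K289R knock-in in LRH-1, the nuclear receptor encoded by Nr5a2, in which a lysine that carries the small protein SUMO is replaced by arginine. Every mouse of both groups was fasted for 24 h and refed for 6 h. The labels give neither age nor whether the knock-in mice carried the allele in 1 or both copies. Whole liver was used, so fewer cells of a type and less RNA per cell cannot be told apart.

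In dividing cells, D-type cyclins bind Cdk4 or Cdk6 and phosphorylate the retinoblastoma protein Rb1, which frees E2F factors to switch on cyclin E and the genes of DNA synthesis, and cyclins A and B with Cdk1 then drive mitosis. CDK inhibitors hold these kinases back. Adult hepatocytes are mostly quiescent and re-enter the cycle after loss of liver mass, and cyclin D1 is the cyclin whose induction marks that step. LRH-1 is known from work in gut and cultured cells to raise cyclin D1 together with beta-catenin and to act on the cyclin E1 gene, so the comparison of K289R with WT livers asks whether these genes differ with the SUMO site of the receptor.

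Each value is the intensity of a probe set on the linear scale, and array medians ran from 26.8 to 29.2. An intensity below its array's median was not told from background here. Hepatocyte markers such as albumin had a mean log2 intensity of 11.71 to 11.79 in WT and 11.70 to 11.79 in K289R. Pancreatic acinar markers set 2 arrays apart, with means of 8.94 on K289R 1 and 9.58 on K289R 3 against 4.52 to 4.67 in WT. Acute phase genes averaged 9.45 on WT 1 and 9.63 on WT 3, and 7.35 to 7.64 on the other WT arrays. The K289R mice 3 and 4 had acute phase means of 8.11 and 8.39, and the rest of that group 7.30 to 7.65. The Ccnd1 result is also given without the arrays K289R 1 and 3 and WT 1 and 3. Values of Myc, Cdkn2c and Cdc6, which moved by over 1.5 times without some or all of these arrays, are given too. Other members also moved that far. Without all 4 arrays the log2 difference between genotypes went from -0.12 to 0.01 for Plk2 and from 0.10 to 0.03 for Mcm3.

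Of the 38 measured cell cycle genes, 1 was called changed, Ccnd1, which fell in K289R livers, and 37 did not pass. A call means an adjusted p under 0.05 over all 19938 genes in the limma fit. Over all genes 0.572% were called, and 0.0903% were called lower, against 2.63% of these members. The median log2 difference (K289R minus WT) was 0.00 over the members and -0.01 over all genes, and 19 members had a positive and 19 a negative value. At an unadjusted p under 0.05 stood 7 members (18.4%), namely Ccnd1, Mcm6, Cdkn2c, Ccnd3, Pcna, Rrm1 and Rrm2, where 12% of all genes did. The groups did not overlap for 2 members (5.26%), Ccnd1 and Pcna, against 1.24% of all genes. The Ccnd1 result was known before this list was drawn up, so its call within the list is not independent evidence.

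**Figure D1:**
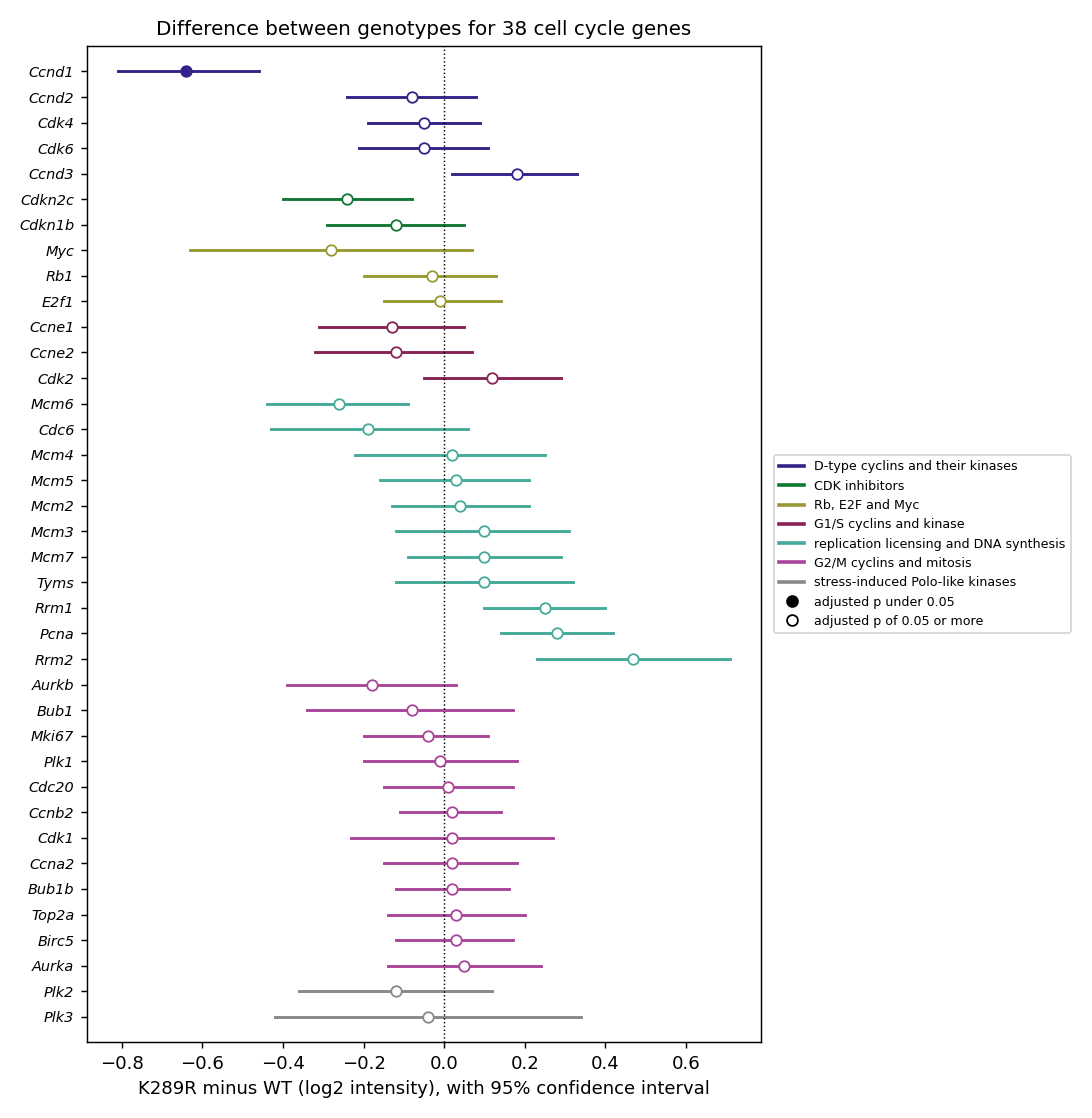
Log2 difference between genotypes (K289R minus WT, horizontal axis) with its 95% confidence interval for 38 cell cycle genes grouped by role, over 6 mice a group. Filled points passed an adjusted p under 0.05 over all genes. Ccnd1 at -0.64 is the one filled point, and the intervals of Rrm2, Pcna, Rrm1 and Ccnd3 lie above 0 and those of Cdkn2c and Mcm6 below it.

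Cyclin D1 (Ccnd1), which couples growth signals to entry into the cycle, was lower in every K289R liver than in any WT liver. Its intensity on the WT arrays was 201, 232, 171, 187, 154 and 191, in the order of their replicate numbers, and on the K289R arrays it was 119, 118, 125, 116, 126 and 121. The lowest WT value, on WT 5, was above the highest K289R value, on K289R 5. The mean fell from 189 ± 26.5 to 121 ± 4.08 (SD, n = 6 each), and the fold change was 1.55-fold lower with a 95% confidence interval of 1.37 to 1.76 (log2 difference -0.64, SE 0.084, adjusted p = 0.000907, limma, probe set 10569646). The K289R mice also lay closer together than the WT mice, with SDs of 0.05 and 0.20 on the log2 scale. The acinar arrays K289R 1 and 3 measured 119 and 125, inside the range of the other K289R arrays. Without K289R 1 and 3 the log2 difference was -0.64 (adjusted p = 0.0101), without WT 1 and 3 it was -0.64 (adjusted p = 0.00548), and without all 4 arrays it was -0.65 (adjusted p = 0.0288).

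Cyclins D2 and D3 perform the same biochemical task in other cell types and stages. Ccnd2 ran from 129 to 164 in WT (median 137) and from 117 to 147 in K289R (median 133). The ranges overlapped over most of their length, and the log2 difference of -0.08 (95% confidence interval -0.24 to 0.08) did not pass (adjusted p = 0.697). Ccnd3 ran from 98.1 to 115 in WT (median 110) and from 110 to 137 in K289R (median 120). On 4 K289R arrays Ccnd3 was above the highest WT array, in the direction opposite to Ccnd1, and its log2 difference of 0.18 (0.02 to 0.33) did not pass over all genes (adjusted p = 0.344).

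The Ccnd1 difference was also set against those of the other D-type cyclins. The fall of Ccnd1 was known when this comparison was chosen and its values enter both measures, so the test is no independent evidence of that fall. Within each array the log2 intensity of Ccnd1 minus that of Ccnd2 averaged 0.42 ± 0.16 over the WT mice and -0.14 ± 0.13 over the K289R mice (SD, n = 6 each), a shift of -0.56 (exact two-sided permutation test, p = 0.00216, adjusted p = 0.00216 over 2 tests). The same measure against Ccnd3 was 0.80 ± 0.21 in WT and -0.01 ± 0.17 in K289R, a shift of -0.81 (exact permutation test, adjusted p = 0.00216). That p is the smallest that the 924 ways of choosing 6 of 12 arrays can give. The WT arrays did not overlap the K289R arrays in either measure.

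**Figure D2:**
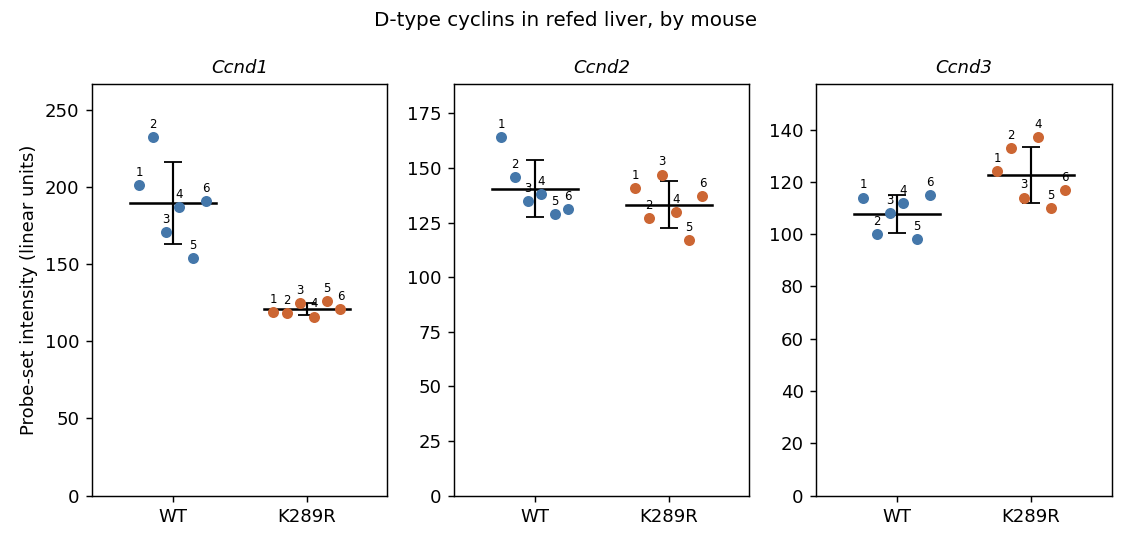
Probe-set intensity (linear units, from 0) of Ccnd1, Ccnd2 and Ccnd3 in each of 6 WT and 6 K289R livers. Points are mice with their replicate number, and bars are mean and SD. The Ccnd1 points of K289R sit between 116 and 126, below every WT point, whereas the groups overlap for Ccnd2 and Ccnd3.

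The kinases that D-type cyclins activate had values close to each other in the genotypes. Cdk4 averaged 342 ± 30.9 over the WT mice and 329 ± 8.59 over the K289R mice (SD, n = 6 each), with a log2 difference of -0.05 (-0.19 to 0.09, adjusted p = 0.778). Cdk6 measured 148 ± 12.7 and 143 ± 11.9, with a log2 difference of -0.05 (-0.21 to 0.11, adjusted p = 0.835). A Ccnd1-sized difference of -0.64 lies outside both intervals.

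Among CDK inhibitors, Cdkn2c encodes p18, which binds Cdk4 and Cdk6, and Cdkn1b encodes p27, which holds cyclin E-Cdk2. Cdkn2c ran from 27.3 to 34.1 in WT (median 30.7) and from 23.1 to 29.2 in K289R (median 26.6). On 4 of the 6 K289R arrays it was below the lowest WT array. Its log2 difference of -0.24 (-0.40 to -0.08) did not pass over all genes (adjusted p = 0.209), and on 5 arrays it lay below the array median. Without K289R 1 and 3 and WT 1 and 3 the Cdkn2c difference was -0.15 (adjusted p = 0.705). Cdkn1b ran from 94.7 to 118 in WT (median 107) and from 89.9 to 117 in K289R (median 92.9), with a log2 difference of -0.12 (adjusted p = 0.565). Its second probe set, at 12.7 to 19.8 in WT and 14.7 to 23.5 in K289R, was below every array median and not told from background.

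The transcription factors of the G1 to S transition did not pass. E2f1, an activator of replication genes, ran from 22.2 to 26.1 in WT (median 23.4) and from 21.3 to 25.9 in K289R (median 23.5), a log2 difference of -0.01 (adjusted p = 0.974). It was below the array median on all 12 arrays, so these intensities were not told from background. Rb1, which restrains E2F, averaged 77.4 ± 2.04 over the WT mice and 76.1 ± 9.68 over the K289R mice (SD, n = 6 each), and did not pass (adjusted p = 0.888). Myc, a growth-induced factor that acts upstream of several members, ran from 38.5 to 91.7 in WT (median 46.9) and from 36.6 to 54.5 in K289R (median 40.7). The 91.7 belonged to WT 5, the WT mouse with the lowest Ccnd1, and the other WT values reached at most 52.7. The Myc log2 difference was -0.28 (adjusted p = 0.520) over the 12 mice and -0.11 without WT 5 (adjusted p = 0.690). Without WT 1 and 3 it was -0.43 (adjusted p = 0.406).

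Cyclin E with Cdk2 starts DNA replication. Ccne1 ran from 17.5 to 22.6 in WT (median 21.4) and from 15.6 to 20.7 in K289R (median 19.8), and Ccne2 from 7.72 to 11.7 (median 8.91) and from 7.79 to 9.57 (median 8.36). Both genes were below the array median on all 12 arrays, so these intensities were not told from background. Ccne1 differed by -0.13 on the log2 scale (adjusted p = 0.547) and Ccne2 by -0.12 (adjusted p = 0.603). Cdk2 was above the array median on every array and averaged 41.5 ± 4.04 over the WT mice and 45.0 ± 3.65 over the K289R mice (SD, n = 6 each), a log2 difference of 0.12 (adjusted p = 0.555).

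Of 11 members that license origins or make DNA precursors, none was called, and 3 that act in DNA synthesis stood among the members nearest to the threshold with higher values in K289R. Pcna, the sliding clamp of DNA polymerases that also serves in DNA repair, ran from 122 to 151 in WT (median 136) and from 158 to 177 in K289R (median 163). The groups did not overlap, and the log2 difference was 0.28 (0.14 to 0.42, adjusted p = 0.0647, probe set 10487930). A second Pcna probe set spanned 116 to 143 on the WT arrays and 152 to 168 on the K289R arrays, also without overlap, with a log2 difference of 0.29. RefSeq lists the pseudogenes Pcna-ps1 and Pcna-ps2, and the files do not tell which copy either probe set measured, so the 2 probe sets are no independent measurements and the source of the signal is uncertain. Pcna passed in 4 of the 24 other settings tried, for example without WT 5 (adjusted p = 0.0422), over a range of adjusted p from 0.0219 to 0.347.

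Rrm2 and Rrm1 encode the small and large subunits of ribonucleotide reductase, which makes deoxynucleotides. Rrm2 ran from 22.3 to 33.7 in WT (median 26.6) and from 30.7 to 45.6 in K289R (median 37.5). On 4 of 6 K289R arrays it was above all WT arrays, on 3 arrays it lay below the array median, and its log2 difference of 0.47 (0.23 to 0.71) was the highest of the 38 members but did not pass (adjusted p = 0.0764). It passed without WT 6 (adjusted p = 0.0336) and without K289R 6 (adjusted p = 0.0380), the WT array with the highest and the K289R array with the lowest value, and its difference was 0.37 without WT 1 and 3. Rrm1 ran from 32.4 to 38.6 in WT (median 34.4) and from 36.6 to 46.7 in K289R (median 40.4). On 5 of 6 K289R arrays Rrm1 was above the highest WT array, with a log2 difference of 0.25 (0.10 to 0.40, adjusted p = 0.155). Thymidylate synthase (Tyms), which makes the thymine nucleotide, had a log2 difference of 0.10 (-0.12 to 0.32, adjusted p = 0.723), from means of 36.5 ± 5.49 for WT and 38.9 ± 4.42 for K289R (SD, n = 6 each).

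**Figure D3:**
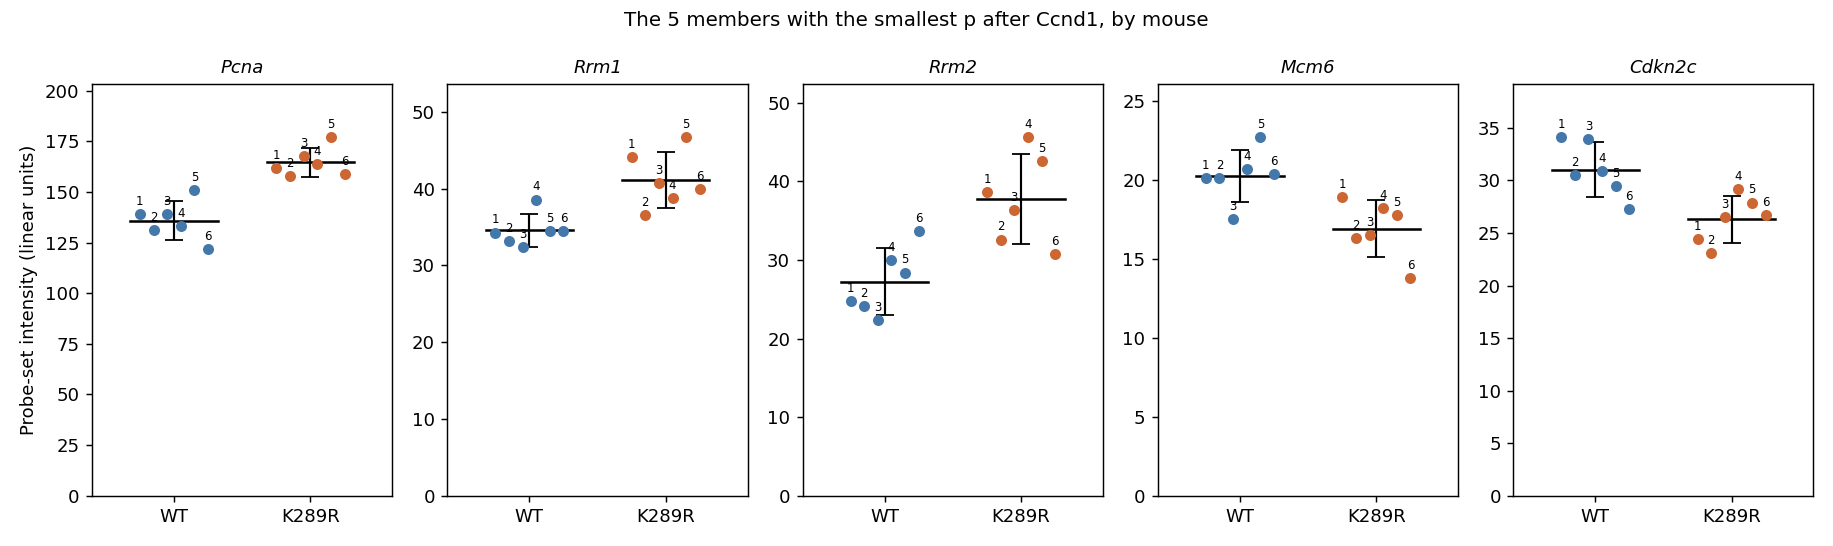
Probe-set intensity (linear units, from 0) of Pcna, Rrm1, Rrm2, Mcm6 and Cdkn2c in each of 6 WT and 6 K289R livers, with points for mice, their replicate numbers, and bars for mean and SD. The groups are apart for Pcna (at most 151 in WT, at least 158 in K289R) and overlap for the other genes.

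The MCM proteins form the replicative helicase, which Cdc6 loads onto origins. Mcm6 ran from 17.5 to 22.7 in WT (median 20.3) and from 13.8 to 18.9 in K289R (median 17.1), opposite in sign to Pcna and the reductase genes. It was below the array median on all 12 arrays, and its log2 difference of -0.26 (-0.44 to -0.09) did not pass (adjusted p = 0.202). The other MCM genes, Mcm2, Mcm3, Mcm4, Mcm5 and Mcm7, had log2 differences between 0.02 and 0.10. Cdc6 had one of -0.19 (adjusted p = 0.530), also below the array median throughout, and one of -0.08 without K289R 1 and 3 and WT 1 and 3 (adjusted p = 0.903). Mcm3 was also below it on all 12 arrays and Mcm4 on 11, so their intensities, like those of Mcm6, were hardly or not told from background. None of the helicase genes passed.

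The stretches upstream of the start sites of Pcna, Rrm1, Rrm2 and Mcm6 are shown because these are the replication genes with an unadjusted p under 0.05. Of them 3 had higher values and 1 had lower values in K289R, and none was called. Mcm6 was below the array median on all 12 arrays, so its intensity was not told from background. The sequences are from RefSeq (build GRCm38.p6), each being the 250 bases before the annotated start, read 5′ to 3′ on the gene's strand. Capitals mark the CCAAT box (CCAAT, or ATTGG on the other strand), bound by NF-Y in many cell cycle promoters, and the E2F motif, searched as TTTGGCGC, TTTGCCGC, TTTCCCGC and TTTCGCGC on both strands. Pcna lies at chr2:132253181-132253430 on the minus strand, Rrm1 at chr7:102441445-102441694 and Rrm2 at chr12:24708004-24708253 on the plus strand, and Mcm6 at chr1:128359706-128359955 on the minus strand.
Pcna: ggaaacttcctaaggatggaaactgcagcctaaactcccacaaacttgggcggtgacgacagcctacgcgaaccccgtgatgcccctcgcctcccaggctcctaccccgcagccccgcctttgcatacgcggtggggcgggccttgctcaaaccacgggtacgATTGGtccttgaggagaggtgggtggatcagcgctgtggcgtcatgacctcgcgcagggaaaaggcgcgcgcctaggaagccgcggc
Rrm1: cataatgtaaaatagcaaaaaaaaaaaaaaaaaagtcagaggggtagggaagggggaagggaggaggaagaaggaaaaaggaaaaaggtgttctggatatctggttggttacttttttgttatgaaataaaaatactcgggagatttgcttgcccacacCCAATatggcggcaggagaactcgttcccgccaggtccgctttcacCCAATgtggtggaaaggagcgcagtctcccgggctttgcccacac
Rrm2: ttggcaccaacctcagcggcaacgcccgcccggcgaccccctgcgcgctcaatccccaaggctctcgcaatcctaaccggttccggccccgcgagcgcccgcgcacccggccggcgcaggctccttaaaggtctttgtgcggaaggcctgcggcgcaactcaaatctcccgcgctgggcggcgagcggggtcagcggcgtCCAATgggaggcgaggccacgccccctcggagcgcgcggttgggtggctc
Mcm6: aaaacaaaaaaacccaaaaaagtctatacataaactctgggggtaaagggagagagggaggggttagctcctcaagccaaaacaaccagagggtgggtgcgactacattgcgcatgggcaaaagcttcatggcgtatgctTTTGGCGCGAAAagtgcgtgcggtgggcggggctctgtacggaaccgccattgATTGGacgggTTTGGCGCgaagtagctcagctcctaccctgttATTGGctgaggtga

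A CCAAT box stood in all 4 windows, once in Pcna and Rrm2 and in 2 places in Rrm1 and Mcm6. It was in the windows of 21 of the 32 members listed in the table (65.6%, counted by gene). Counted by window, it was in 22 of their 36 windows and in 33.8% of all 32851 windows. The E2F spellings were found in Mcm6 at 3 positions, of which 2 overlap on opposite strands, and in no other of the 4 windows. They were in 6 of the 32 listed members (Cdc6, Cdk1, Cdk2, Mcm5, Mcm6 and Mcm7, 18.8%), in 6 of the 36 member windows, and in 1.86% of all windows. For the core of the site bound by LRH-1 and its relatives, only the spelling AAGGTCA was searched, on either strand. It was in 1 listed member, Ccnd3 (3.12%). That is 1 of the 36 member windows, and this spelling was in 4.08% of all windows. The members outside the table are Aurkb, Ccna2, Ccnd1, Ccnd2, Ccne2, Mcm4, Myc and Rb1. A match to letters is a description and no measured site, and a window without a match says only that those letters are not in it.

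None of the 12 measured genes of G2 and mitosis had an unadjusted p under 0.05, where 12% of all genes did. The median log2 difference of these 12 genes was 0.02. Mki67, the nuclear antigen of cycling cells, ran from 12.5 to 13.8 in WT (median 13.2) and from 11.6 to 15.4 in K289R (median 12.6). Topoisomerase Top2a, which untangles chromosomes, ran from 5.62 to 6.89 (median 6.42) and from 5.83 to 7.71 (median 6.35). Cdk1, the mitotic kinase, ran from 19.5 to 26.1 (median 22.8) and from 16.5 to 29.4 (median 23.3), with the lowest and the highest of all 12 values in K289R. Their log2 differences were -0.04, 0.03 and 0.02, with adjusted p of 0.855, 0.904 and 0.960. Mki67 and Top2a were below the array median on all 12 arrays and Cdk1 on 11. Their intensities were thus hardly or not told from background.

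The cyclins Ccna2 and Ccnb2 each had a log2 difference of 0.02. The spindle checkpoint genes Bub1 and Bub1b had differences of -0.08 and 0.02, Cdc20, which activates the anaphase-promoting complex, one of 0.01, and survivin (Birc5) one of 0.03. Among mitotic kinases Aurka, Aurkb and Plk1 had differences of 0.05, -0.18 and -0.01. The Aurkb value was the one farthest from 0 in this group (-0.39 to 0.03, adjusted p = 0.490). Of the 12 genes 9 were below the array median on all arrays. Their intensities were not told from background, so a small difference between genotypes says little there. Plk2 and Plk3, Polo-like kinases induced by stress and serum, differed by -0.12 (adjusted p = 0.698) and by -0.04 on the log2 scale (adjusted p = 0.949).

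Mice of one genotype differed most for Plk3 and Myc, with pooled SDs of 0.38 and 0.35 on the log2 scale, whereas the median over the 38 members was 0.14 and over all genes 0.15. Plk3 ran from 116 on WT 4 to 244 on WT 1. Among replication genes above the array median on every array, Mcm5, Mcm7 and Pcna had their highest WT value on WT 5.

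**Figure D4:**
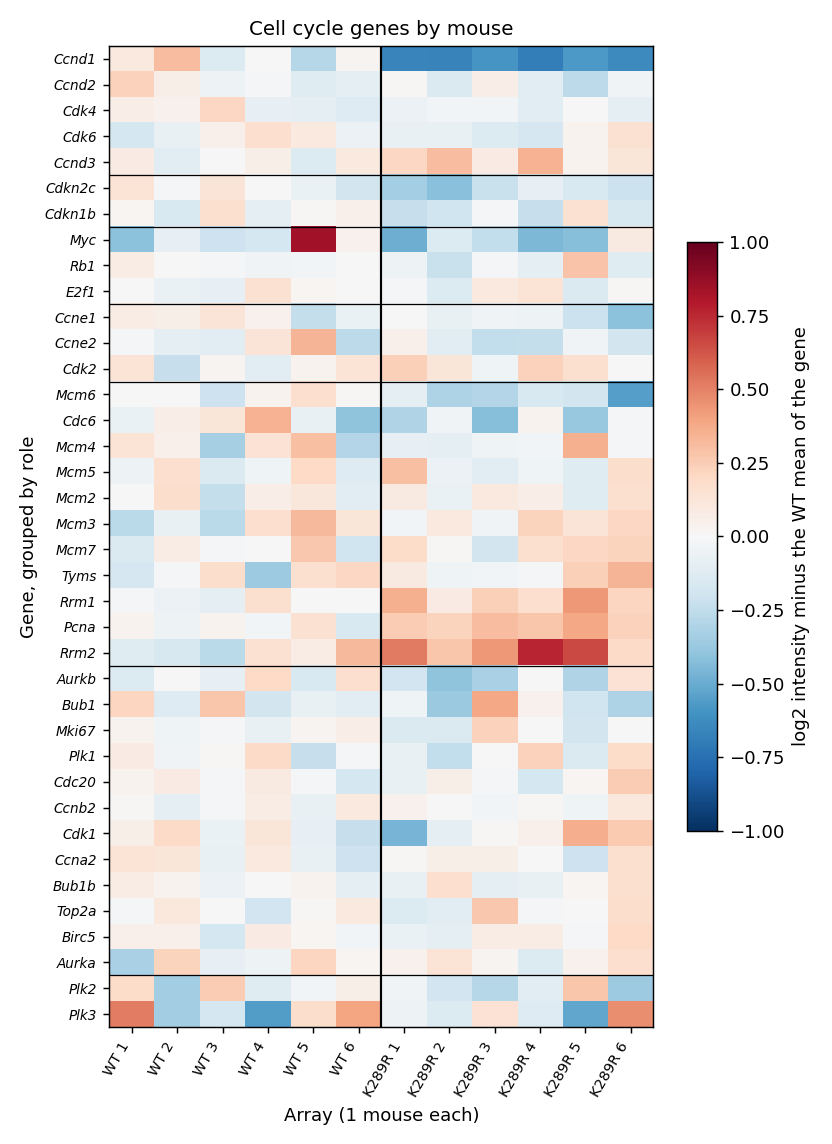
Log2 intensity of 38 cell cycle genes (rows, grouped by role) on each of 12 arrays (columns, 1 mouse each), minus the mean of the 6 WT arrays for that gene. Red is above and blue below the WT mean. The Ccnd1 row is blue on all 6 K289R arrays, the Pcna, Rrm1 and Rrm2 rows are red there, and Myc is reddest on WT 5.

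Beyond these members, 166 of 173 further genes of the cycle and of the signals upstream of it were measured, in 6 lists. One was called, Id3, which fell, and 165 did not pass. That is 0.602% of them, near the 0.572% over all genes, and 15.1% had an unadjusted p under 0.05. Id3, an inhibitor of helix-loop-helix factors that promotes cycling, ran from 95.8 to 174 in WT (median 163) and from 69.2 to 85.7 in K289R (median 73.8). As with Ccnd1, all K289R arrays lay below all WT arrays (log2 difference -0.96, adjusted p = 0.000711).

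Id3 was the 1 gene called among 24 genes of growth and Wnt signalling upstream of cyclin D1, a share of 4.17% against 0.572% of all genes, and the results of these data were known when the list was drawn up. At an unadjusted p under 0.05 stood 7 of the 24 (29.2%, against 12% of all genes), all with lower values in K289R. Apart from Id3 none of the 7 was called. The list joins growth with Wnt genes, so the count does not tell to which of these signals the lower values belong. The lowest log2 difference of this list, -1.01, belonged to a gene that was not called. Whether the lower values bear on Ccnd1 was not tested. In the 43 other DNA replication genes the smallest p belonged to Gins4, a subunit of the helicase complex (68.6 and 89.2 at the WT and K289R medians, log2 difference 0.36, adjusted p = 0.0758), followed by Rfc3 (-0.19) and Pole (0.21). Pole was below the array median on all 12 arrays and so not told from background, and Rfc3 was below it on 6. In the 45 other mitosis genes the smallest p belonged to securin (Pttg1, medians 118 and 140, log2 difference 0.29, adjusted p = 0.0812), Mad2l1 (0.31) and Smc2 (0.22). Smc2 was below the array median on all 12 arrays and Mad2l1 on 10, so their intensities were hardly or not told from background. The groups did not overlap for 3 of the 166 further genes (1.81%), near the 1.24% of all genes, namely Id3, Pttg1 and Cdc25b. Cdc25b, a phosphatase that activates CDKs, had lower values in K289R (log2 difference -0.20, adjusted p = 0.178) and was below the array median on 4 arrays.

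In 17 genes of the p53 pathway and DNA damage, 7 had an unadjusted p under 0.05 (41.2%, against 12% of all genes), 5 with higher and 2 with lower values in K289R. Earlier results of these data were known when this list was drawn up, so the share is no independent evidence. Among the 7 were Gadd45g (log2 difference -0.71, adjusted p = 0.0947), Trp53inp1 (0.54, adjusted p = 0.103) and Atm (0.27, adjusted p = 0.251). Of 18 other cyclins and CDK modifiers the next were Ccng2 (0.40, adjusted p = 0.357) and Cdc34 (-0.15). Of 19 other CDK inhibitors, pocket proteins and E2F factors they were Mybl2 (-0.28, adjusted p = 0.333), Lin54 (0.19) and Rbl1 (-0.20). None of these passed over all genes. Rbl1 was below the array median on all 12 arrays and so not told from background. Gadd45g was below it on 4 arrays, Ccng2 and Mybl2 on 2 each and Atm on 1.

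Markers of other cell types were set beside the Ccnd1 result. None of 8 liver endothelial markers was called, and their mean log2 intensity was 7.12 to 7.52 in WT and 7.37 to 7.62 in K289R, with Stab2 and Oit3 at an unadjusted p under 0.05. In the other lists Epcam, Cd8a, Cd79a and Orm2 were. Means of 5 cholangiocyte markers were 4.42 to 4.70 and 4.47 to 4.78, of 8 Kupffer cell or macrophage markers 6.21 to 6.80 and 6.29 to 7.25, and of 8 stellate cell or fibroblast markers 6.63 to 7.01 and 6.59 to 6.87. T or NK cell markers (7 measured) averaged 3.66 to 3.84 and 3.57 to 3.80, B or plasma cell markers (6) 3.85 to 3.98 and 3.74 to 4.05, neutrophil markers (7) 3.82 to 4.03 and 3.76 to 4.02, and erythroid markers (2) 6.26 to 6.88 and 6.59 to 6.83. Skeletal muscle markers (8) were highest on WT 1 (7.26) and K289R 3 (6.06). Each of these lists overlapped between the genotypes and none held a called gene, where 0.572% of all genes were called. The acinar list overlapped too and held no called gene, despite means of 8.94 on K289R 1 and 9.58 on K289R 3. Overlap without a call is therefore no measure of equal cell content. The T or NK cell, B or plasma cell and neutrophil means lay below the median log2 intensity of every array (4.742 to 4.868). So did the cholangiocyte mean on every array but K289R 5. These averages were not told from background, so their overlap gives no measure of those cells. The part of the endothelial difference of 0.13 in the Ccnd1 result was not tested.

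**Figure D5:**
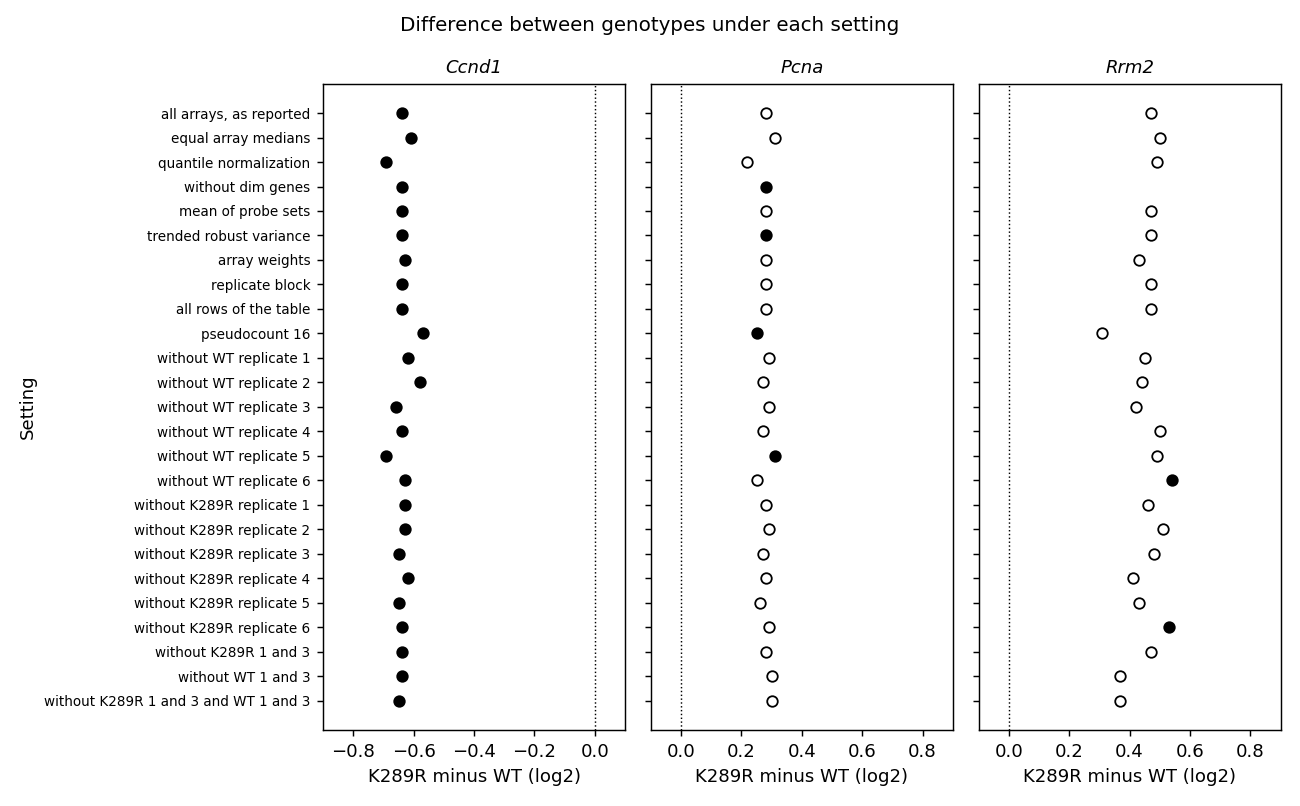
Log2 difference between genotypes (horizontal axis) for Ccnd1, Pcna and Rrm2 under the reported setting and 24 others (rows). Filled points passed an adjusted p under 0.05. Ccnd1 is filled in every row, from -0.69 to -0.57, Pcna in 4 rows other than the first and Rrm2 in 2, and Rrm2 has no point without dim genes because it was among them.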

How the data were processed

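The deposited table held linear summarized intensities, made by the authors with Affymetrix Expression Console, per the submitters' processing notes. The sources used here do not give its version, background correction, summarization or normalization. Of 35556 rows, 21789 had 1 gene symbol in the platform annotation, 1621 several and 12146 none listed. Rows without exactly 1 symbol were left out. A gene with over 1 probe set (999 of 19938) was represented by the one with the highest mean log2 value. Log2 was taken without a pseudocount, and K289R was compared with WT by limma 3.58.1 (R 4.3.3, lmFit and eBayes) on 12 arrays without covariates, with Benjamini-Hochberg adjustment over 19938 genes. All adjusted p-values come from this fit unless named otherwise. Confidence intervals are 95% intervals of the fit, and means ± SD are of linear intensities.

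The members and lists were chosen with earlier results of these data known. The members named with full ranges were those with an unadjusted p under 0.05, the D-type cyclins, the analysed CDK inhibitors, Ccne1, Ccne2, Myc, E2f1, Mki67, Top2a and Cdk1. Further lists gave their called genes, otherwise the 3 with the smallest p. The difference of Ccnd1 from Ccnd2 and Ccnd3 was tested by exact permutation. The number of arrays limits the precision. Alternatives were other scalings, filters, variance models, a pseudocount of 16, the replicate number as a block, and leaving out arrays. On simulated arrays of 19938 genes, K289R against WT, the fit recovered 87 of 100 genes changed 1.5-fold and 98 of 100 changed 2-fold, with 10 false calls. The simulation gave the full fold at every intensity, with independent normal noise. Its rates therefore do not carry over to members below the array median. Python 3.11.15 and matplotlib 3.10.9 drew the figures.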

Additional observations from a re-analysis of the deposited data

Results flagged for a closer look

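In 108 groups of 6 arrays (38 members and 16 further named genes, in WT and in K289R), 7 had 1 array far from the rest, its gap to the nearest array exceeding 0.625 of the group's range on the log2 scale. Chance flags about 1 in 20 groups. Myc measured 91.7 on WT 5 and 38.5 to 52.7 on the other WT arrays. Mcm4 measured 28.2 on K289R 5 (others 20.7 to 21.9), and Atm 48.3 on the same array (others 34.4 to 37.6). Trp53inp1 measured 461 on WT 1 (others 277 to 313), and Rb1 81.3 on that array (others 75.7 to 77.5). Rrm1 measured 38.6 on WT 4 (others 32.4 to 34.5), the array that made the groups overlap for this gene on the WT side. Rfc3 measured 22.1 on K289R 3 (others 25.9 to 28.1).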

How the results depend on the processing

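The Ccnd1 fall passed in all 24 other settings, from -0.69 to -0.57 (adjusted p from 0.000234 to 0.0288, and 0.00785 with the replicate block). The shifts against Ccnd2 and Ccnd3 passed in all 19 settings run for each. The replicate numbers name different mice, and same-numbered arrays deviated from their group means with correlations from -0.231 to 0.233. With the replicate number as a block 111 genes were called in all, and 2 of the further cell cycle genes (Id3 and Gadd45g). The count of genes called was 114, 75 without K289R 1 and 3 and 65 without these and WT 1 and 3, and 81 to 159 when 1 array was left out. Of the calls 84.2% were higher, and 73.4% after quantile normalization. The count of members called was 1, and 2 without dim genes, with a trended and robust variance or with a pseudocount of 16, Pcna being the second each time. Leaving out 1 array gave 1 to 2 members (Pcna added without WT 5, Rrm2 without WT 6 or K289R 6). The count of further genes called was 1, 3 without dim genes and 2 with the pseudocount. Without K289R 1 and 3 and WT 1 and 3 it was 2. When 1 array was left out it was 1 to 3, being above 1 without WT 1, WT 4, WT 5, K289R 1 or K289R 6. The added genes were Gins4, Pttg1, Gadd45g, Trp53inp1, Egr1 or Fos, the last 2 named after their values were seen, and the cause was not tested. Of the 37 other members, 20 changed sign in some setting and none passed with the opposite sign. The 15 members below the array median on every array limit what could be detected.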
